A study of Mus musculus with 35 samples.

Results

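The genes described here are *Cdk4*, *Cdk6*, *Ccnd1*, *Ccnd2*, *Ccnd3*, *Cdkn1a*, *Cdkn1b*, *Cdkn1c*, *Cdkn2c* and *Cdkn2d*, the G1 kinases, the D cyclins and the inhibitors that act on them. They were taken by symbol and are 10 of the 49671 genes counted. All 10 passed the filter on low counts, which left 17166 genes for testing. Counts are given as CPM (read counts relative to library size) scaled by TMM (trimmed mean of M values, edgeR's correction for differences in composition between libraries), and a gene is called higher or lower when edgeR's quasi-likelihood test gave a Benjamini-Hochberg adjusted p under 0.05 over all genes tested.

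The series asked how the phenylalanine-glycine (FG) motifs and the DNA-binding homeodomain of NUP98-HOXA9, a leukemia fusion oncoprotein, bear on gene expression in blood progenitors. Lineage-negative (lin-) hematopoietic stem and progenitor cells from C57Bl/6 mouse bone marrow were transduced with lentivirus, sorted by fluorescence and grown for 1 week in methylcellulose with cytokines, and bulk RNA was sequenced from 5 libraries in each of 7 groups. Empty cells carried the vector with mCherry alone, and the other groups carried in addition an mEGFP-tagged construct: G-NHX9 (the whole fusion, G-NHA9 in the study's text), G-NHX9-8FA and G-NHX9-21FGAA (FG motifs substituted in the NUP98 part), G-NHX9-midi (a shortened NUP98 part), G-NHX9-midi-21FGAA (the shortened part with the substitutions), or G-NHX9-DDNA (a homeodomain mutated to weaken DNA binding). No other treatment is named, and the sorted cells were pools and not clones. The labels give the mice an age of 8 weeks, except for Empty replicates 4 and 5 and G-NHX9 replicate 1, which are labelled between 9 and 11 weeks. Male and female mice were both used, and nothing in the labels says that replicates came from separate animals, so p-values measure the spread between these libraries, which may be technical. The study's methods describe transduction in triplicate. Its figure legend for the RNA-seq gives n = 5 per condition, the number of libraries read here in each group. How the triplicates relate to the 5 libraries is not given in the sources used here.

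D cyclins are made in response to growth factors and bind CDK4 or CDK6. The complexes phosphorylate the retinoblastoma family, which releases E2F factors and lets a cell leave G1 for S phase. INK4 proteins, such as those of *Cdkn2c* (p18) and *Cdkn2d* (p19), bind CDK4 and CDK6 themselves, whereas the CIP/KIP proteins of *Cdkn1a* (p21), *Cdkn1b* (p27) and *Cdkn1c* (p57) bind complexes of cyclins and kinases. In blood, CDK6 and cyclin D3 are known for their roles in progenitors, and p57, p27 and p18 for restraining the division of stem cells.

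Promoters are shown for *Cdk4* and *Cdk6*, the kinases that were called higher, and for *Cdkn2c*, which was called lower in 2 groups and not in G-NHX9 cells. The windows hold 300 bases, most of them upstream of a RefSeq start (GRCm38.p6), 5′ to 3′ on the gene's strand, with the E-box word CACGTG in capitals. *Cdk4* is at chr10:127063285-127063584 (plus strand), *Cdk6* at chr5:3343643-3343942 (plus strand), and *Cdkn2c* has starts at chr4:109666707-109667006 and chr4:109665323-109665622 (both minus strand).
Cdk4: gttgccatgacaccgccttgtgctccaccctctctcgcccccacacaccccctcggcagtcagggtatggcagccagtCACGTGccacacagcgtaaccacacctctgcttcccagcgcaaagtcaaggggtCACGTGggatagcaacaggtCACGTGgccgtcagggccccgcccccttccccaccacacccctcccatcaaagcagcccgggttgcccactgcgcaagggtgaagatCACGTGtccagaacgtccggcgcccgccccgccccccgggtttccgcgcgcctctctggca
Cdk6: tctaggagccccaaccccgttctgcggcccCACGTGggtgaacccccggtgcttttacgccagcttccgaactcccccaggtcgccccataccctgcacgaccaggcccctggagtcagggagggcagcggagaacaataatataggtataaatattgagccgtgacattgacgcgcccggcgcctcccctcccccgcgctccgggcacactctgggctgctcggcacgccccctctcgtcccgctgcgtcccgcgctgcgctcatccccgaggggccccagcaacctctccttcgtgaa
Cdkn2c, first start: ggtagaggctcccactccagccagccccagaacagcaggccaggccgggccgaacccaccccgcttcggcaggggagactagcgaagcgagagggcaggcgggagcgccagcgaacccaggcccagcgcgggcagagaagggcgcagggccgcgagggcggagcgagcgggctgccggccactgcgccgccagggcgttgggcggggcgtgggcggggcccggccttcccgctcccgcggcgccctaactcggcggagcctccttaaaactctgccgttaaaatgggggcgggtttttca
Cdkn2c, second start: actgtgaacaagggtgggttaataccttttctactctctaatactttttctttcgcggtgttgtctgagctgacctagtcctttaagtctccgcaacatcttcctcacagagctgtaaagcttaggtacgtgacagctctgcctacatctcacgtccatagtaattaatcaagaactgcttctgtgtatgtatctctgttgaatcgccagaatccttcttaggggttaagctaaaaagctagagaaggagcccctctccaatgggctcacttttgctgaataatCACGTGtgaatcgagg
The *Cdk4* window holds 4 E-box words, and 8 of all 32851 promoter windows of this length (0.0244%) hold 4 or more. At least 1 such word stands in 7.15% of all windows. Also searched, on both strands, were the E2F words TTTCGCGC and TTTGGCGC (0.813% of windows), the HOX-PBX word TGATTTAT (0.977%) and the STAT5 word TTCNNNGAA (8.3%). None of these stands in a window of *Cdk4*, *Cdk6*, *Ccnd3*, *Cdkn1a*, *Cdkn1b*, *Cdkn2c* or *Cdkn2d*. *Ccnd1*, *Ccnd2* and *Cdkn1c* were not matched. A match is a description of these letters only.

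Total counts were between 31559914 and 75810659 per library. The median correlation of a library with the others of its group was 0.977 or higher, and for 29 of 35 libraries the nearest library was of the same group. *Hoxa9*, the mouse gene whose human counterpart is in the constructs, was between 0.693 and 1.26 CPM in Empty cells, between 79.3 and 113 CPM in G-NHX9 cells and between 0.242 and 2.18 CPM in G-NHX9-midi-21FGAA cells. It was 28.5 to 41.5 CPM in G-NHX9-8FA, 25.5 to 44.4 CPM in G-NHX9-midi, 1.00 to 5.15 CPM in G-NHX9-21FGAA and 16.9 to 23.0 CPM in G-NHX9-DDNA libraries. How far reads of the construct were counted on it was not tested. Stem and progenitor markers (6 genes) summed to between 430 and 977 CPM. In bulk samples, fewer cells of a type and less RNA per cell cannot be told apart.

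Against Empty cells, *Cdk4* was higher in all 6 constructs, and *Ccnd1* was lower and *Cdk6* higher in G-NHX9 and G-NHX9-midi cells. G-NHX9-midi cells had the most calls, with 3 genes higher (*Cdk4*, *Cdk6* and *Cdkn1b*) and 5 lower (*Ccnd1*, *Ccnd3*, *Cdkn1c*, *Cdkn2c* and *Cdkn2d*) of the 10, where 20.5% and 20.0% of all genes tested were called higher and lower. In G-NHX9 cells, 2 were higher and 1 lower (16.9% and 15.2% of all genes). In G-NHX9-8FA cells, *Cdk4* was higher and *Cdkn2c* lower (13.4% and 13.2%), and in G-NHX9-21FGAA cells *Cdk4* was higher and *Cdkn1a* lower (14.7% and 12.5%). In G-NHX9-midi-21FGAA cells and in G-NHX9-DDNA cells *Cdk4* was the 1 gene higher and none was lower (9.59% and 7.32% of all genes in the former, 9.85% and 7.35% in the latter). Shares of 1 or 2 genes in 10 are near these backgrounds. The median log2 fold change of the 10 genes ran from -0.30 in G-NHX9-midi cells to 0.19 in G-NHX9-DDNA cells, and that of all genes from -0.02 to 0.03. The 6 comparisons share the Empty libraries.

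**Figure D1:**
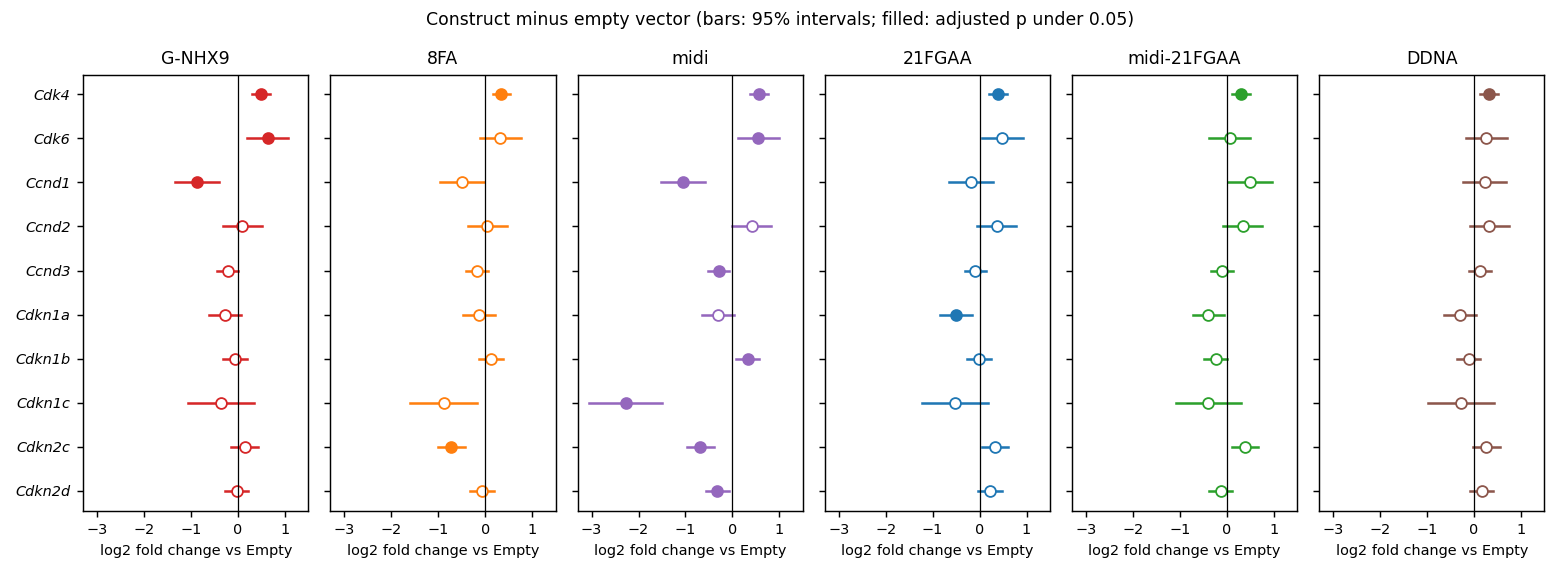
Log2 fold change of each gene in the 6 constructs against Empty cells, with 95% intervals from the fit to all 35 libraries (filled points have an adjusted p under 0.05; 5 libraries per group). *Cdk4* lies to the right of 0 in all 6 panels, between 0.30 and 0.57, and *Cdkn1c* in G-NHX9-midi cells, at -2.27, is the point farthest from 0.

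*Cdk4*, the more widely expressed of the D cyclin-dependent kinases, lies on chromosome 10 (127063534 to 127067920, plus strand). Empty libraries held 119, 112, 113, 94.3 and 101 CPM in replicates 1 to 5. G-NHX9 libraries held 131, 156, 160, 141 and 167 CPM. G-NHX9-midi libraries held 151, 158, 169, 160 and 161 CPM. Every library of both constructs was above every Empty library, and the same was true of G-NHX9-8FA (129 to 145 CPM) and G-NHX9-midi-21FGAA (121 to 140 CPM). In G-NHX9-21FGAA (110 to 165 CPM) and G-NHX9-DDNA cells (114 to 157 CPM), 4 of 5 libraries were. On the log2 scale, the difference from Empty cells was 0.57 ± 0.09 (SE) in G-NHX9-midi cells (adjusted p = 6.9e-06, edgeR) and 0.49 ± 0.09 in G-NHX9 cells (adjusted p = 1e-04, edgeR). It was 0.39 ± 0.09 in G-NHX9-21FGAA, 0.34 ± 0.09 in G-NHX9-8FA, 0.32 ± 0.09 in G-NHX9-DDNA and 0.30 ± 0.09 in G-NHX9-midi-21FGAA cells (adjusted p = 0.0017, 0.005, 0.015 and 0.021, edgeR). The genes most like *Cdk4* over the 35 libraries were *Dhodh* and *Gart*, both of nucleotide synthesis (r = 0.95 and 0.94). Neighbours in the order of group means overlapped, apart from the lowest construct and Empty.

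The *Cdk4* calls differed in how they held. The libraries labelled 8 weeks left 3 Empty libraries, without replicates 4 and 5, the lowest at 94.3 and 101 CPM. With these libraries alone the call was lost in G-NHX9-8FA (0.24, adjusted p = 0.099, edgeR), G-NHX9-DDNA (0.24, adjusted p = 0.12) and G-NHX9-midi-21FGAA cells (0.22, adjusted p = 0.16). It was also lost in G-NHX9-DDNA cells without their replicate 2 (0.26, adjusted p = 0.064, edgeR) and in G-NHX9-midi-21FGAA cells without their replicate 3 or 4 or without Empty replicate 4 (0.27 to 0.28, adjusted p of 0.052 to 0.067). *Tspan31* overlaps *Cdk4* on the other strand and was called lower in G-NHX9-21FGAA (-0.32) and G-NHX9-midi-21FGAA cells (-0.29) and not called in the other comparisons with Empty. Whether the counting used the strand is not given in the sources used here. Opposite-strand genes also overlap *Cdk6*, *Ccnd1*, *Ccnd2*, *Ccnd3*, *Cdkn1a* and *Cdkn1c*, so without strand their reads could not be told apart either.

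*Cdk6*, the kinase that prevails in many blood progenitors, is on chromosome 5 (3341485 to 3531008, plus strand). Empty libraries held 142, 156, 152, 238 and 222 CPM in replicates 1 to 5. G-NHX9 libraries held 260, 213, 207, 313 and 415 CPM, and 3 of them were above the highest Empty library. G-NHX9-midi libraries held 241, 294, 264, 193 and 340 CPM, and 4 were above it. The log2 difference from Empty was 0.63 ± 0.22 (SE) in G-NHX9 cells (adjusted p = 0.023, edgeR) and 0.55 ± 0.22 in G-NHX9-midi cells (adjusted p = 0.039, edgeR). In the other constructs it was between 0.06 and 0.48 with an adjusted p of 0.096 or more. The highest of these, in G-NHX9-21FGAA cells, passed the threshold with the replicate block (0.49, adjusted p = 0.0081, edgeR), on library totals without TMM (0.67, adjusted p = 0.025) and among libraries labelled 8 weeks (0.77, adjusted p = 0.03). Group means ran from 182 CPM in Empty to 282 CPM in G-NHX9 cells, and every neighbour in this order overlapped the next.

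The *Cdk6* call in G-NHX9 cells was lost without Empty replicate 1, 2 or 3 or G-NHX9 replicate 4 or 5 (0.45 to 0.59, adjusted p of 0.052 to 0.12, edgeR), and that in G-NHX9-midi cells without Empty replicate 1, 2 or 3 or G-NHX9-midi replicate 2, 3 or 5 (0.45 to 0.56, adjusted p of 0.058 to 0.11), under RLE scaling (0.53, adjusted p = 0.05) and with no filter (0.56, adjusted p = 0.054). Both held among the libraries labelled 8 weeks (0.93 and 0.82, adjusted p = 0.0086 and 0.013, edgeR).

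Per kilobase of exon, *Cdk6* was below *Cdk4* in every group mean. The length of a gene was that of all its annotated exons merged. Which transcripts were expressed was not tested, so the order of different genes depends on these lengths. *Cdk4* was at 33.2 ± 3.05 CPM per kb (SD, n = 5) and *Cdk6* at 13.0 ± 3.18 CPM per kb in Empty cells, and at 46.5 ± 4.51 and 20.1 ± 6.15 CPM per kb in G-NHX9 cells. *Cdk6* thus made up 28.1% ± 6.76 (SD, n = 5) of the summed level of both kinases in Empty cells and 24.8% to 29.9% in the means of the 6 constructs. The summed level was 45.5 to 47.0 CPM per kb in Empty libraries, 58.9 to 81.0 in G-NHX9 and 63.2 to 73.8 in G-NHX9-midi libraries.

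*Ccnd1*, the D cyclin most dependent on growth factor signals, is on chromosome 7 (144929931 to 144939925, minus strand) and had the widest range of the 3 D cyclins as a ratio of highest to lowest library, though not in CPM. Empty libraries held 79.4, 56.8, 62.2, 49.2 and 66.9 CPM. G-NHX9 libraries held 34.5, 38.2, 48.2, 23.4 and 28.1 CPM. G-NHX9-midi libraries held 40.8, 18.8, 29.0, 36.1 and 26.1 CPM. All 5 libraries of both constructs were below the lowest Empty library. The log2 difference from Empty was -0.87 ± 0.23 (SE) in G-NHX9 (adjusted p = 0.0039, edgeR) and -1.06 ± 0.23 in G-NHX9-midi cells (adjusted p = 0.00039, edgeR), and both calls held without any 1 library and under the other settings tried. In G-NHX9-8FA libraries, at 56.4, 47.3, 58.2, 29.0 and 32.5 CPM, 3 of 5 were below the Empty range, and the difference was -0.49 ± 0.23 (adjusted p = 0.11, edgeR). It was past the threshold with the replicate block (-0.53, adjusted p = 0.021, edgeR).

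At the other end of the order were G-NHX9-midi-21FGAA cells, at 111, 95.9, 105, 63.8 and 67.7 CPM of *Ccnd1*, and G-NHX9-DDNA cells, at 79.6, 78.8, 69.8, 70.3 and 68.9 CPM. Neither differed from Empty cells past the threshold (0.49 ± 0.23 and 0.22 ± 0.23, adjusted p = 0.14 and 0.55, edgeR). The difference in G-NHX9-midi-21FGAA cells passed it on library totals without TMM (0.63, adjusted p = 0.033, edgeR). It also did so with a score of sex-linked transcripts, described below, as a covariate (0.49, adjusted p = 0.034, edgeR). Against G-NHX9 cells, *Ccnd1* was higher in G-NHX9-DDNA cells by 1.09 ± 0.23 on the log2 scale (adjusted p = 0.00066, edgeR), with all 5 libraries above the highest G-NHX9 library. *Ccnd3* was also higher there, and none of the 10 was lower (10.7% of all genes tested were higher and 11.4% lower). In G-NHX9-21FGAA cells, at 59.9, 77.2, 70.2, 36.0 and 34.9 CPM, *Ccnd1* was the 1 gene higher than in G-NHX9 cells and none was lower (8.91% and 8.34% of all genes), by 0.69 ± 0.23 (adjusted p = 0.034, edgeR). Replicates 1, 2 and 3 were above and replicates 4 and 5 within the G-NHX9 range. This call was lost without any 1 of G-NHX9 replicates 1, 4 and 5 or G-NHX9-21FGAA replicates 1, 2 and 3 (0.54 to 0.69, adjusted p of 0.058 to 0.13, edgeR) and in a fit to these 2 groups only (0.70, adjusted p = 0.088).

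Mast cell and macrophage markers also differed between these groups. Of the 6 mast cell and basophil markers, 4 were lower than in Empty cells in each of G-NHX9, G-NHX9-8FA and G-NHX9-midi cells, and their summed level was 1088 to 3178 CPM in Empty, 581 to 706 CPM in G-NHX9 and 444 to 759 CPM in G-NHX9-midi libraries, against 3029 to 4275 CPM in G-NHX9-21FGAA, 2279 to 5979 CPM in G-NHX9-midi-21FGAA and 2222 to 3228 CPM in G-NHX9-DDNA libraries. The summed macrophage markers (6 genes, of which *C1qa* had no count in at least 1 library) were 2690 to 3504 CPM in Empty, 1353 to 2381 CPM in G-NHX9 and 1304 to 2540 CPM in G-NHX9-midi libraries, with 2 of the 6 called lower and 2 higher in G-NHX9 and 4 called lower in G-NHX9-midi cells. The macrophage sum was also below the Empty range, at 1414 to 2530 CPM, in G-NHX9-21FGAA and, at 2137 to 2406 CPM, in G-NHX9-DDNA libraries, with 3 and 2 of the 6 called lower. *Ccnd1* was -0.18 and 0.22 from Empty in these 2 groups on the log2 scale, and was called in neither. In G-NHX9-8FA libraries the mast cell and basophil sum was 480 to 790 CPM and the macrophage sum 1581 to 2993 CPM. *Ccnd1* was -0.49 from Empty there, not called in the main fit and called lower with the replicate block. The part of these markers in the result was not tested. Over the 35 libraries, *Lmna*, a nuclear lamina gene, and *Vim*, an intermediate filament gene, were the genes most like *Ccnd1* in log2 CPM (r = 0.93 for both; genes averaging under 5 CPM were left out). The points share library and scaling, and no test was made.

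*Ccnd2* is on chromosome 6 (127125162 to 127152193, minus strand) and encodes the D cyclin that often answers cytokines in blood cells. It was called in no comparison, but some alternative fits called it. Empty libraries held 84.2, 97.3, 81.5, 138 and 121 CPM, and group means ran from 104 ± 24.4 CPM (SD, n = 5) in Empty to 138 ± 29.1 CPM in G-NHX9-midi cells, with overlap between all neighbours. The log2 difference from Empty was largest in G-NHX9-midi cells at 0.41 ± 0.20 (SE; adjusted p = 0.11, edgeR; 95% interval -0.01 to 0.82). It was past the threshold among libraries labelled 8 weeks (0.65, adjusted p = 0.038, edgeR) and with the replicate block (0.43, adjusted p = 0.0076). The 8-week libraries leave out Empty replicates 4 and 5, at 138 and 121 CPM the highest Empty libraries. With the block, *Ccnd2* was also called higher in G-NHX9-21FGAA than in Empty cells (0.38, adjusted p = 0.025, edgeR). The same held for G-NHX9-midi against G-NHX9 cells (0.36, adjusted p = 0.04). *Usp42*, a deubiquitinase gene, was the gene most like *Ccnd2* over the 35 libraries (r = 0.88).

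*Ccnd3*, which encodes the D cyclin needed for the expansion of several blood lineages, is on chromosome 17 (47505051 to 47599691, plus strand). Empty libraries held 201, 194, 177, 221 and 236 CPM. G-NHX9-midi libraries held 141, 172, 156, 159 and 210 CPM, and 4 of them were below the Empty range. The log2 difference was -0.30 ± 0.11 (SE; adjusted p = 0.034, edgeR). G-NHX9-DDNA libraries held 216, 232, 205, 230.2 and 244 CPM against 143, 174, 167, 172 and 226 CPM in G-NHX9 libraries, a log2 difference of 0.36 ± 0.11 (adjusted p = 0.02, edgeR). The first call was lost without Empty replicate 4 or 5 or G-NHX9-midi replicate 1, 3 or 4 (-0.28 to -0.24, adjusted p of 0.074 to 0.11, edgeR) on library totals without TMM (-0.18, adjusted p = 0.24), among libraries labelled 8 weeks (-0.20, adjusted p = 0.25) and in 3 other fits (adjusted p of 0.058 to 0.084), and the second without G-NHX9 replicate 1 (0.29, adjusted p = 0.078) and in 3 other fits (0.30 to 0.35, adjusted p of 0.066 to 0.076). *Ccnd3* in G-NHX9 cells was -0.22 ± 0.11 from Empty (adjusted p = 0.13, edgeR), -0.23 with the replicate number as a block (adjusted p = 0.039) and -0.33 without G-NHX9 replicate 5 (adjusted p = 0.022).

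Per kilobase of merged exons, *Ccnd3* had the largest share of the summed D cyclin level in every group mean. It ran from 39.8% ± 1.89 (SD, n = 5) in G-NHX9-midi-21FGAA to 51.1% ± 2.48 in G-NHX9 cells. As for the kinases, the order of the genes depends on the exon lengths used. The share of *Ccnd1* was 28.0% ± 5.28 in Empty, 19.1% ± 6.04 in G-NHX9, 16.2% ± 5.45 in G-NHX9-midi and 34.4% ± 8.12 in G-NHX9-midi-21FGAA cells. *Ccnd2* exceeded *Ccnd1* in the means of G-NHX9 (29.8% ± 4.75), G-NHX9-8FA (27.2% ± 3.99), G-NHX9-midi (36.3% ± 4.26) and G-NHX9-21FGAA cells (30.0% ± 6.49). *Ccnd1* exceeded *Ccnd2* in those of Empty, G-NHX9-midi-21FGAA and G-NHX9-DDNA cells. The summed level was 42.1 to 54.0 CPM per kb in Empty, 34.0 to 49.4 in G-NHX9 and 52.9 to 57.2 in G-NHX9-midi-21FGAA libraries.

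**Figure D2:**
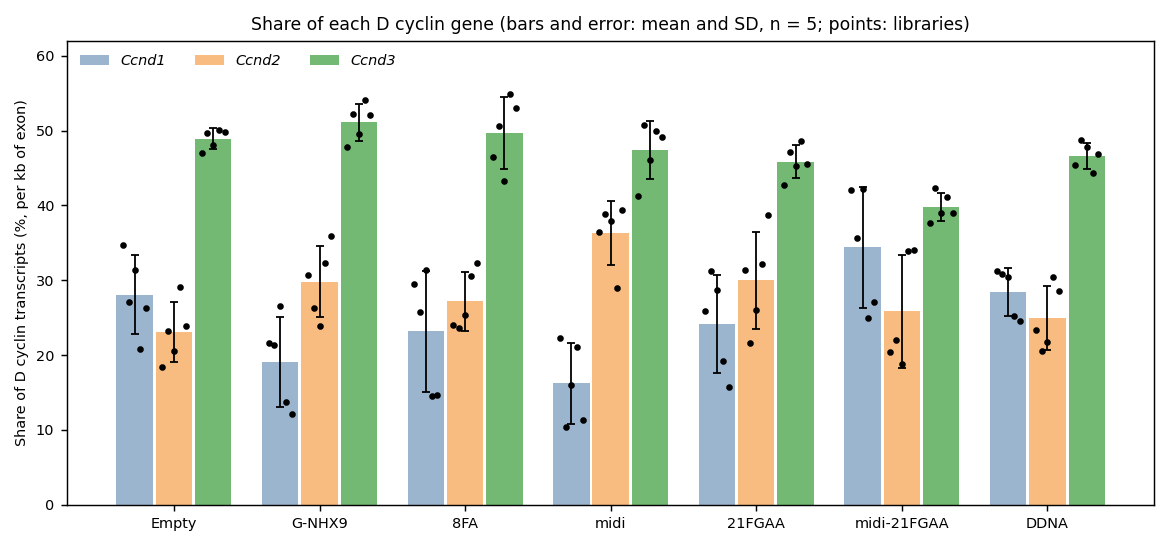
Share of each D cyclin gene (vertical axis, percent of the summed CPM per kb of exon of *Ccnd1*, *Ccnd2* and *Ccnd3*) in the 7 groups; bars and error bars are means and SD of 5 libraries and points are libraries. The *Ccnd1* bar is lowest in G-NHX9-midi cells at 16.2% and highest in G-NHX9-midi-21FGAA cells at 34.4%, while the *Ccnd3* bar stays between 39.8% and 51.1%.

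Within groups, the kinases and D cyclins moved together or apart between libraries. After each group's mean was taken away, the correlation of log2 CPM over the 35 libraries was 0.95 between *Cdk6* and *Ccnd2* and -0.58 between *Cdk6* and *Ccnd1*. It was -0.62 between *Ccnd1* and *Ccnd2* and -0.28 between *Cdk6* and *Cdk4*. *Cdk6* was highest in replicate 5 in 6 of 7 groups, and *Ccnd2* was highest there in 4. A score of sex-linked transcripts (log2 CPM of *Xist* minus the mean of 4 genes of the Y chromosome), which lay between 4.58 and 7.99 over the libraries, moved with these genes. The score also differed in range between groups, at 4.58 to 6.98 in Empty, 4.67 to 6.03 in G-NHX9-midi and 5.44 to 7.99 in G-NHX9-21FGAA libraries. A fit with the score can therefore move fold changes as well as p-values. The correlation of the score within groups was 0.87 with *Cdk6*, 0.90 with *Ccnd2*, -0.69 with *Ccnd1* and -0.06 with *Cdk4*. These are descriptions over 35 points that share library and scaling. With the score as a covariate, *Ccnd2* was higher in G-NHX9-midi than in Empty cells (0.63, against 0.41 without it, adjusted p = 3.4e-06, edgeR). *Cdk6* was then higher in G-NHX9-8FA and G-NHX9-21FGAA cells as well (0.38 and 0.34, adjusted p = 0.0087 and 0.019, edgeR), and *Ccnd1* was lower in G-NHX9-8FA cells (-0.56, adjusted p = 0.012). *Cdk6* and *Ccnd1* kept their calls in G-NHX9 and G-NHX9-midi cells with it. *Ccnd2* was then also higher in G-NHX9-midi-21FGAA than in Empty cells (0.30, adjusted p = 0.024, edgeR) and in G-NHX9-midi than in G-NHX9 cells (0.55, adjusted p = 9.2e-05). It was lower in G-NHX9-midi-21FGAA than in G-NHX9-midi cells (-0.33, adjusted p = 0.0059). Its 21FGAA effect differed between the whole and the shortened construct (0.49, adjusted p = 0.012).

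**Figure D3:**
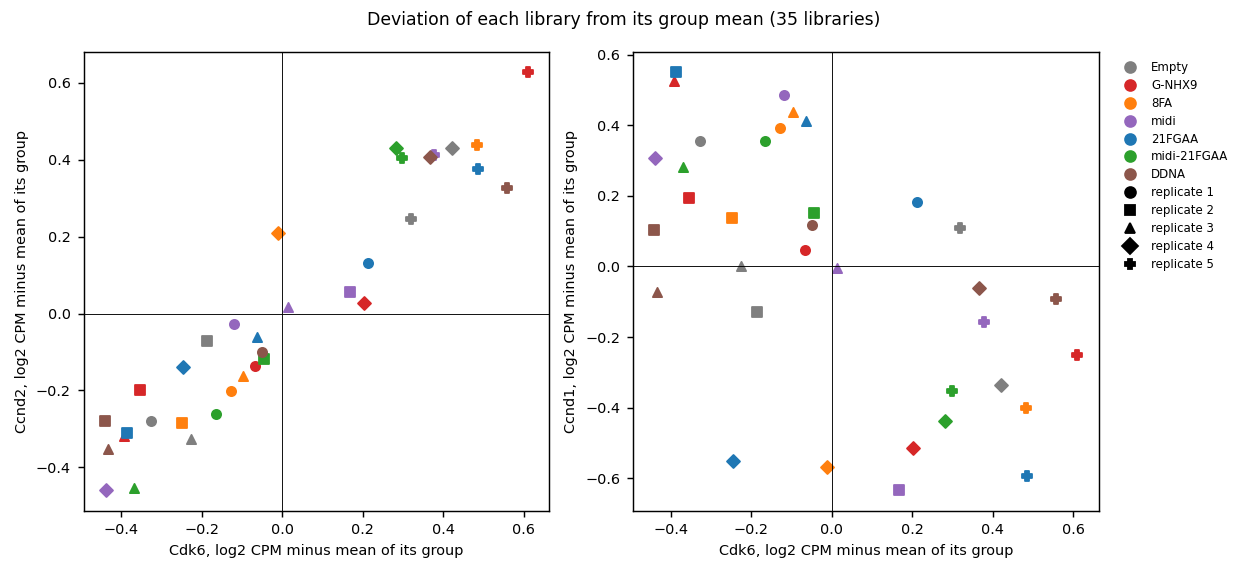
Deviation of each of the 35 libraries from its group mean in log2 CPM, *Ccnd2* (left) and *Ccnd1* (right) against *Cdk6*, with colors for groups and symbols for replicate numbers. *Ccnd2* follows *Cdk6* (r = 0.95), *Ccnd1* runs the other way (r = -0.58), and *Cdk6* is highest in replicate 5 in 6 of 7 groups.

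*Cdkn1a*, which encodes p21, an inhibitor induced by p53, is on chromosome 17 (29090976 to 29100727, plus strand). Empty libraries held 171, 157, 137, 200 and 244 CPM. G-NHX9-21FGAA libraries held 156, 141, 135, 98.3 and 112 CPM, 3 of them below the Empty range. The log2 difference was -0.50 ± 0.17 (SE; adjusted p = 0.023, edgeR), and in the other constructs it was between -0.39 and -0.14 with an adjusted p of 0.1 or more. The call was lost without Empty replicate 4 or 5 or G-NHX9-21FGAA replicate 4 or 5 (-0.45 to -0.36, adjusted p of 0.063 to 0.13, edgeR), among libraries labelled 8 weeks (-0.26, adjusted p = 0.34), on library totals without TMM (-0.33, adjusted p = 0.14) and with no filter (-0.47, adjusted p = 0.052). Empty replicates 4 and 5, which the 8-week libraries leave out, were the highest Empty libraries.

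*Cdkn1b*, which encodes p27, is on chromosome 6 (134920401 to 134925513, plus strand). Empty libraries held 76.6, 75.6, 77.2, 65.4 and 74.1 CPM and G-NHX9 libraries 73.4, 85.5, 63.6, 65.2 and 65.1 CPM. In G-NHX9-midi libraries, at 86.6, 113, 88.4, 85.7 and 87.7 CPM, every value was above both ranges. The log2 difference was 0.32 ± 0.12 (SE) from Empty (adjusted p = 0.034, edgeR) and 0.39 ± 0.12 from G-NHX9 (adjusted p = 0.023, edgeR). The first call was lost without G-NHX9-midi replicate 2 (0.24, adjusted p = 0.14, edgeR) or Empty replicate 2, 4 or 5 (0.27 to 0.32, adjusted p of 0.05 to 0.098) and in 3 other fits, the lowest value being 0.25 (adjusted p of 0.063 to 0.18), and the second without G-NHX9-midi replicate 2 or G-NHX9 replicate 3, 4 or 5 (0.30 to 0.36, adjusted p of 0.052 to 0.092), on library totals without TMM (0.33, adjusted p = 0.052) and with no filter (0.39, adjusted p = 0.056). *Cdkn1b* was highest in replicate 2 in 6 of 7 groups and lowest in replicate 4 in 5. G-NHX9-midi-21FGAA libraries held 61.3, 75.8, 63.9, 47.8 and 64.1 CPM, 0.56 ± 0.12 below G-NHX9-midi cells on the log2 scale (adjusted p = 0.00037, edgeR), and this call held in every alternative and without any 1 library.

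*Cdkn1c*, an imprinted gene for p57, is on chromosome 7 (143458339 to 143461050, minus strand) and was the least abundant of the 10. Empty libraries held 1.97, 1.86, 3.58, 1.43 and 0.796 CPM, from 26 to 155 reads. G-NHX9 libraries held 1.70, 1.59, 2.06, 1.34 and 0.832 CPM. G-NHX9-midi libraries held 0.259, 0.150, 0.368, 0.883 and 0.350 CPM, from 5 to 33 reads. In G-NHX9-midi cells 4 of 5 libraries were below the Empty range and 4 below the G-NHX9 range, and replicate 4 was the exception in both. The log2 difference was -2.27 ± 0.38 (SE) from Empty (adjusted p = 1.2e-05, edgeR) and -1.90 ± 0.38 from G-NHX9 (adjusted p = 0.00044, edgeR). Without any 1 library these were -2.75 to -1.93 and -2.36 to -1.71, and both calls held. G-NHX9-8FA libraries held 1.07, 1.55, 1.49, 0.591 and 0.489 CPM, -0.88 ± 0.35 from Empty (adjusted p = 0.061, edgeR; adjusted p = 0.034, DESeq2), and past the threshold without G-NHX9-8FA replicate 2 or 3 or Empty replicate 4 or 5 (-1.09 to -0.99, adjusted p of 0.02 to 0.047, edgeR). The genes most like *Cdkn1c* over the 35 libraries were *Rgs10*, a regulator of G-protein signaling (r = 0.90), and *Lgmn*, a lysosomal protease (r = 0.89).

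*Cdkn2c*, which encodes p18, is on chromosome 4 (109660876 to 109667189, minus strand) and fell into a high and a low set of groups. Empty libraries held 17.0, 11.2, 16.5, 11.7 and 14.5 CPM, and G-NHX9 libraries held 15.5, 18.5, 17.1, 13.5 and 13.3 CPM. G-NHX9-8FA libraries held 7.06, 8.82, 10.1, 8.06 and 8.89 CPM and G-NHX9-midi libraries 6.80, 10.8, 8.51, 8.00 and 9.89 CPM. Every library of the last 2 groups was below every library of the other 5 groups. The log2 difference from Empty was -0.72 ± 0.14 (SE) in G-NHX9-8FA (adjusted p = 2e-04, edgeR) and -0.69 ± 0.14 in G-NHX9-midi cells (adjusted p = 0.00017, edgeR). Between G-NHX9 and Empty cells it was 0.14 ± 0.14 (adjusted p = 0.49, edgeR; 95% interval -0.14 to 0.42).

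Against G-NHX9 cells, *Cdkn2c* was the 1 gene lower in G-NHX9-8FA cells and none was higher (8.04% and 6.43% of all genes tested were lower and higher), by 0.86 ± 0.14 on the log2 scale (adjusted p = 5.4e-05, edgeR). In G-NHX9-midi cells, *Cdkn1c* and *Cdkn2c* were lower and *Cdkn1b* higher (11.2% of all genes lower and 8.50% higher), and the difference in *Cdkn2c* was -0.83 ± 0.14 (adjusted p = 5e-05, edgeR). These 4 calls of *Cdkn2c* held without any 1 library and in every alternative. G-NHX9-21FGAA libraries held 16.3, 20.3, 20.5, 16.3 and 15.7 CPM, G-NHX9-midi-21FGAA libraries 14.8, 19.3, 21.9, 18.7 and 18.1 CPM and G-NHX9-DDNA libraries 15.8, 19.4, 19.6, 14.0 and 16.3 CPM. With the replicate number as a block, *Cdkn2c* in G-NHX9-midi-21FGAA cells was above Empty (0.38, adjusted p = 0.016, edgeR, against 0.39 ± 0.14 and 0.051 without the block), as it was under 5 other settings (0.39 to 0.53) and without Empty replicate 1 or 3 or G-NHX9-midi-21FGAA replicate 1 (0.46 to 0.47), and *Cdkn1b* was below it (-0.25, adjusted p = 0.02), which brought the calls in that comparison from 1 to 3. In G-NHX9-21FGAA cells *Cdkn2c* was 0.33 ± 0.14 from Empty (adjusted p = 0.077, edgeR), and past the threshold without Empty replicate 1 or 3 (0.42 and 0.40, adjusted p = 0.031 and 0.046), on library totals without TMM (0.51, adjusted p = 0.0052) and in 3 other fits, the replicate block among them (adjusted p of 0.023 to 0.047).

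Erythroid markers moved with *Cdkn2c*. All 5 (*Slc4a1*, *Klf1*, *Epor*, *Aqp1* and *Alas2*) were lower than in Empty cells in G-NHX9-8FA and in G-NHX9-midi cells, and none had 0 counts in any library. Their summed level was 34.4 to 117 CPM in Empty, 15.8 to 75.0 CPM in G-NHX9, 1.00 to 4.28 CPM in G-NHX9-8FA, 0.982 to 2.81 CPM in G-NHX9-midi and 67.1 to 207 CPM in G-NHX9-midi-21FGAA libraries. The globin genes *Hba-a1* and *Hbb-bs* were the 2 genes most like *Cdkn2c* over the 35 libraries (r = 0.91 for both). Megakaryocyte markers (4 of 4) and eosinophil markers (2 of 3) were also called lower in both groups, and 1 eosinophil marker was called higher in G-NHX9-midi cells. Their part in the result was not tested.

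*Cdkn2d*, which encodes p19, is on chromosome 9 (21288410 to 21291407, minus strand). Empty libraries held 36.4, 36.4, 46.2, 42.0 and 44.5 CPM and G-NHX9-midi libraries 24.5, 35.4, 31.7, 34.4 and 38.3 CPM, of which 4 were below the Empty range. The log2 difference was -0.32 ± 0.12 (SE; adjusted p = 0.034, edgeR), and in the other constructs it was between -0.13 and 0.22 with an adjusted p of 0.19 or more, though on library totals without TMM it was 0.40 in G-NHX9-21FGAA cells (adjusted p = 0.014). This call was lost without Empty replicate 3, 4 or 5 or G-NHX9-midi replicate 1 or 3 (-0.33 to -0.23, adjusted p of 0.051 to 0.13, edgeR), among libraries labelled 8 weeks (-0.28, adjusted p = 0.13), on library totals without TMM (-0.20, adjusted p = 0.2) and with no filter (-0.32, adjusted p = 0.082). Against G-NHX9 cells *Cdkn2d* in G-NHX9-midi cells was at -0.30 ± 0.12 (adjusted p = 0.088, edgeR), and past the threshold without G-NHX9-midi replicate 5 (-0.36, adjusted p = 0.048), with the replicate block (-0.30, adjusted p = 0.012) and on library totals (-0.35, adjusted p = 0.045). Per kilobase, *Cdkn2c* was 16.8% ± 2.85 (SD, n = 5) of the summed *Cdkn2c* and *Cdkn2d* level in Empty, 11.5% ± 1.84 in G-NHX9-8FA, 13.6% ± 1.19 in G-NHX9-midi and 22.6% ± 3.16 in G-NHX9-midi-21FGAA cells. The level per kb of all 5 inhibitors together was 88.9 to 119 in Empty libraries and between 75.4 and 107 in those of the constructs.

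**Figure D4:**
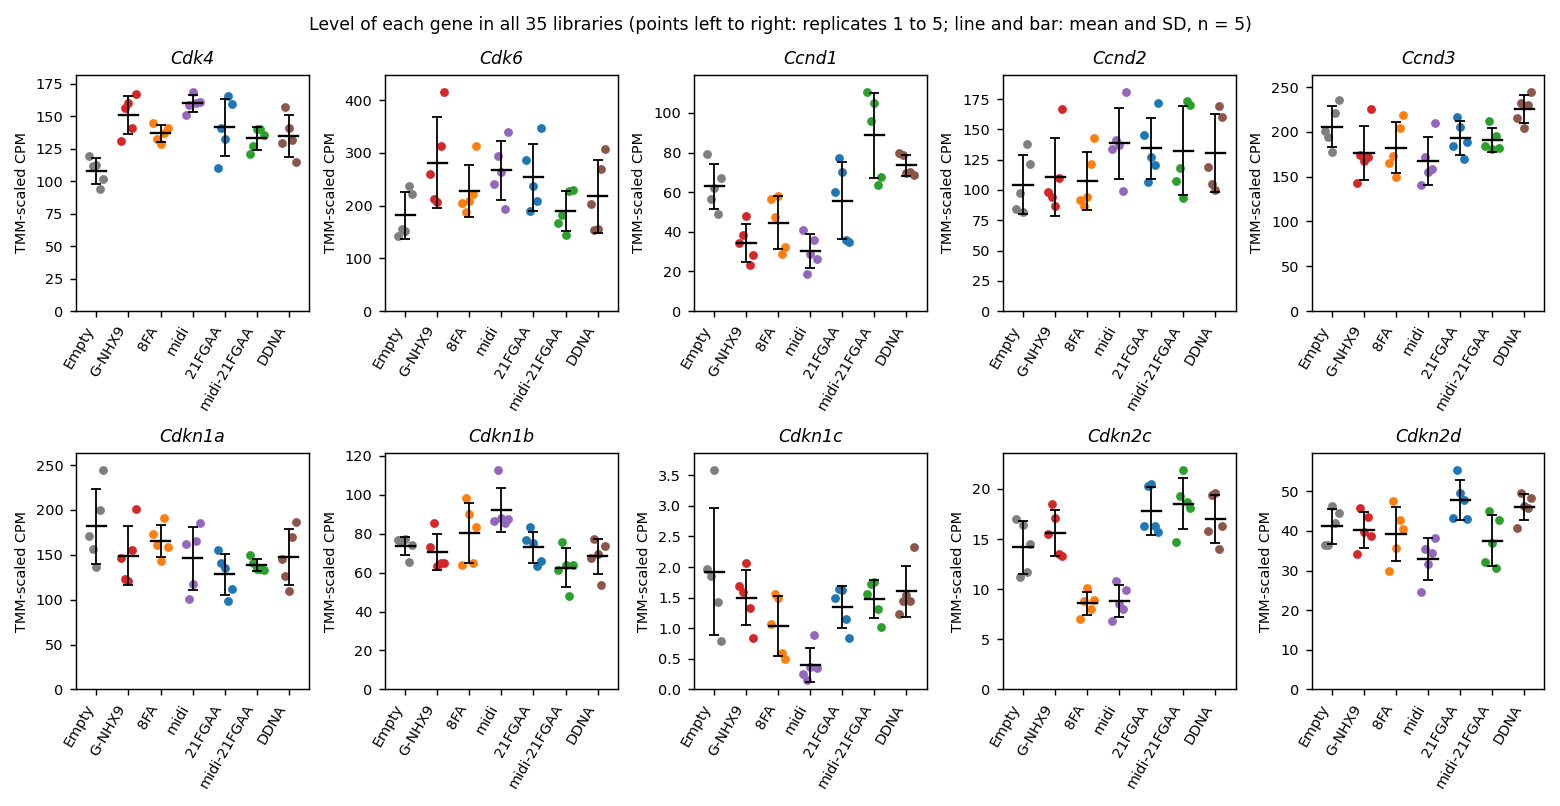
TMM-scaled CPM (vertical axes, from 0) of the 10 genes in all 35 libraries, with points from left to right for replicates 1 to 5 and lines and bars for the mean and SD of 5 libraries. The *Cdkn2c* points of G-NHX9-8FA and G-NHX9-midi cells (6.80 to 10.8 CPM) lie below all others, and the *Cdk4* points of Empty cells lie below most others.

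The 21FGAA substitutions were put into the whole and into the shortened construct, and their effect differed between both for 3 of the 10 genes (12.6% of all genes tested differed in either direction). In the study's account, the substituted FG motifs lie in the C-terminal part of the NUP98 region. With the substitutions the whole construct keeps its N-terminal FG motifs, and the shortened one keeps none. The 2 comparisons thus do not end at the same number of motifs. In the shortened construct 3 genes were higher with the substitutions (*Ccnd1*, *Cdkn1c* and *Cdkn2c*) and 2 lower (*Cdk4* and *Cdkn1b*), where 21.0% and 22.2% of all genes were higher and lower. *Ccnd1* rose by 1.55 ± 0.23 on the log2 scale (SE; adjusted p = 1.9e-06, edgeR), *Cdkn1c* by 1.88 ± 0.38 (adjusted p = 0.00014) and *Cdkn2c* by 1.07 ± 0.14 (adjusted p = 1.6e-07), each with all 5 libraries above the highest G-NHX9-midi library. *Cdk4* fell by 0.27 on this scale (SE 0.09, adjusted p = 0.018, edgeR), and without G-NHX9-midi-21FGAA replicate 1 this was -0.21 (adjusted p = 0.082), as with no filter at -0.24 (adjusted p = 0.092). *Cdk6* was at -0.49 (adjusted p = 0.065, edgeR), and past the threshold without G-NHX9-midi replicate 4 or G-NHX9-midi-21FGAA replicate 5 (-0.58 and -0.57, adjusted p = 0.04 and 0.05), with the replicate block (-0.51, adjusted p = 0.0033), in a fit to these groups only (-0.46, adjusted p = 0.04) and with the sex-linked score (-0.74, adjusted p = 2.9e-06), and *Ccnd3* was so without G-NHX9-midi replicate 5 (0.28, adjusted p = 0.041). In the whole construct, *Cdkn1b*, *Cdkn1c* and *Cdkn2c* were at 0.05 ± 0.12, -0.15 ± 0.35 and 0.19 ± 0.14. The effect in the whole construct minus that in the shortened one was -0.88 ± 0.20 for *Cdkn2c* (adjusted p = 0.0021, edgeR), -2.03 ± 0.51 for *Cdkn1c* (adjusted p = 0.0068, edgeR) and 0.61 ± 0.17 for *Cdkn1b* (adjusted p = 0.017, edgeR). For *Ccnd1*, higher with the substitutions in both, the difference was -0.86 ± 0.32 (adjusted p = 0.077, edgeR; 95% interval -1.52 to -0.20), and past the threshold without G-NHX9 replicate 4, G-NHX9-21FGAA replicate 2 or G-NHX9-midi replicate 1 (-1.01 to -0.97, adjusted p of 0.039 to 0.049), with the replicate block (-0.83, adjusted p = 0.019) and with the sex-linked score (-0.94, adjusted p = 0.006).

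With the replicate number as a block, *Cdkn2d* was also higher in G-NHX9-21FGAA than in G-NHX9 cells (0.25, adjusted p = 0.043, edgeR), which brought that comparison from 1 call to 2, and *Cdk6* was lower in G-NHX9-DDNA than in G-NHX9 cells (-0.37, adjusted p = 0.048). All 5 erythroid markers and all 6 mast cell and basophil markers were higher in G-NHX9-midi-21FGAA than in G-NHX9-midi cells, and the erythroid effect differed between the constructs for 5 of 5. Their part in the result was not tested.

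**Figure D5:**
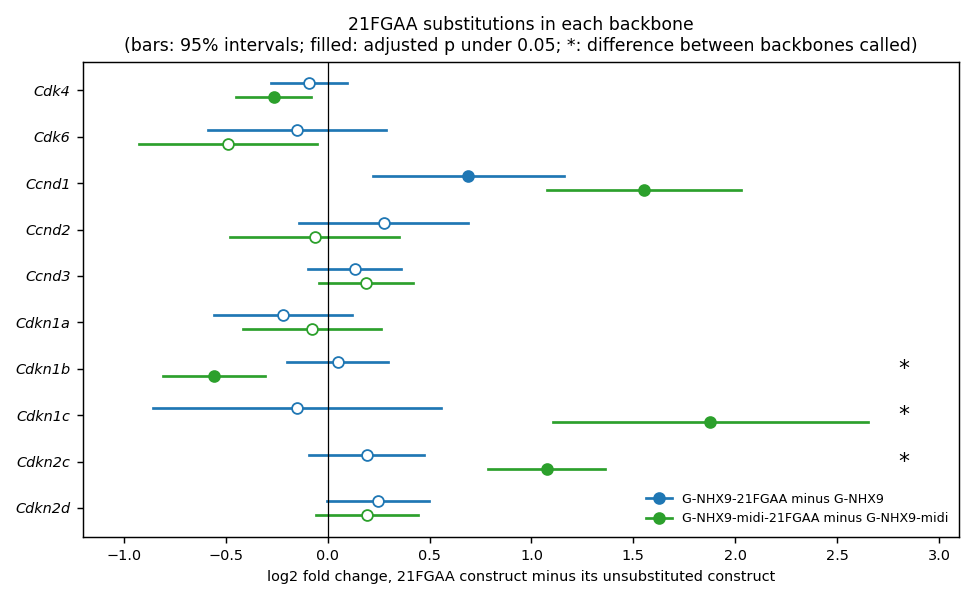
Log2 fold change of each gene with the 21FGAA substitutions, in the whole construct and in the shortened one, with 95% intervals; filled points have an adjusted p under 0.05 and a star marks a called difference between the constructs. The stars are at *Cdkn1b*, *Cdkn1c* and *Cdkn2c*, for which the point of the whole construct lies between -0.15 and 0.19.

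Of 26 other genes of the G1 to S phase transition, all tested, 8 were higher and 3 lower than in Empty cells in G-NHX9 cells (16.9% and 15.2% of all genes), 8 and 2 in G-NHX9-8FA (13.4% and 13.2%), and 9 and 5 in G-NHX9-midi cells (20.5% and 20.0%). In G-NHX9-21FGAA cells 11 were higher and 0 lower (14.7% and 12.5%), in G-NHX9-midi-21FGAA cells 7 and 0 (9.59% and 7.32%), and in G-NHX9-DDNA cells 10 and 1 (9.85% and 7.35%). *Tfdp1*, the DNA-binding partner of E2F factors, was 90.2 ± 7.83 CPM (SD, n = 5) in Empty cells and 118 to 144 CPM in the means of the 6 constructs. It was named by the rule in 5 of them, with log2 differences of 0.38 ± 0.11 (SE) in G-NHX9-midi-21FGAA (adjusted p = 0.012, edgeR) to 0.68 ± 0.11 in G-NHX9 cells (adjusted p = 7.4e-06). The rule takes only the 5 called genes of largest fold change. That *Tfdp1* was not named in G-NHX9-21FGAA cells, at 131 ± 16.6 CPM (SD, n = 5), thus does not mean it was unchanged there. *E2f8* had the largest fold change of the called genes in G-NHX9 (1.11 ± 0.30, adjusted p = 0.0046, edgeR) and G-NHX9-21FGAA cells (1.07 ± 0.30, adjusted p = 0.0082). It was also higher in G-NHX9-DDNA cells (0.95 ± 0.30, adjusted p = 0.027). *Cks1b*, a cofactor in the breakdown of p27, was 0.87 ± 0.17 higher in G-NHX9 cells (adjusted p = 0.00015, edgeR). It was also called higher in G-NHX9-21FGAA (0.81), G-NHX9-midi (0.71), G-NHX9-DDNA (0.70) and G-NHX9-8FA cells (0.59; adjusted p of 0.00059 to 0.0084). *Ccne2*, a cyclin E gene, was 0.96 ± 0.21 higher in G-NHX9-midi-21FGAA (adjusted p = 0.0028, edgeR) and 1.01 ± 0.21 higher in G-NHX9-DDNA cells (adjusted p = 0.0019). In G-NHX9-21FGAA cells it was 0.81 ± 0.21 higher (adjusted p = 0.0051, edgeR). *E2f2*, an activating E2F gene with high expression in erythroid precursors, was lower in the same 2 groups as *Cdkn2c*, at -0.78 ± 0.15 in G-NHX9-8FA (adjusted p = 0.00016, edgeR) and -0.63 ± 0.15 in G-NHX9-midi cells (adjusted p = 0.00085). The INK4 gene *Cdkn2b* was 0.95 ± 0.18 higher in G-NHX9-midi cells (adjusted p = 4.4e-05, edgeR), where *Cdkn2c* and *Cdkn2d* were lower. It was also higher in G-NHX9-8FA cells (0.50 ± 0.17, adjusted p = 0.033, edgeR). *Cdkn2a*, another INK4 gene, was lower in G-NHX9 cells (-0.63 ± 0.17, adjusted p = 0.0036, edgeR). It was higher in G-NHX9-21FGAA (0.66 ± 0.16, adjusted p = 0.0029) and G-NHX9-midi-21FGAA cells (0.71 ± 0.16, adjusted p = 0.0037). *Cdkn2b* was called higher in G-NHX9-21FGAA cells as well.

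The 16 genes of the proliferation list, such as *Mki67*, *Top2a* and the *Mcm* genes, were called higher than in Empty cells for 15 in G-NHX9, 1 in G-NHX9-8FA, 6 in G-NHX9-midi and 16 in each of the other 3 constructs, and none was lower (9.59% to 20.5% of all genes were higher). Their summed level was 1201 to 2253 CPM in Empty, 2137 to 3032 CPM in G-NHX9, 1419 to 2379 CPM in G-NHX9-8FA and 1351 to 2695 CPM in G-NHX9-midi libraries. Over the 35 libraries, the correlation of this sum with the log2 level was 0.70 for *Cdkn2c* and 0.43 within groups, 0.32 and 0.39 for *Cdk4*, and -0.49 and -0.30 for *Cdkn1a*.

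For the remaining genes, the most similar pattern over the 35 libraries was that of *Acsf2* for *Cdk6* (r = 0.91), *Tagln2* for *Ccnd3* (r = 0.88), *Rara* for *Cdkn1a* (r = 0.81), *Ccnt2* for *Cdkn1b* (r = 0.85) and *Clu* for *Cdkn2d* (r = 0.84).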

How the data were processed

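Bulk RNA-seq was read from 35 libraries, 5 in each of 7 groups taken from the labels. The authors aligned reads to mm10 with STAR 2.7.0d and deposited gene counts from HTSeq 0.11.2 (the submitters' notes also name DESeq2). Whether counting used strand is not given in the sources used here. The counts were used as deposited, with totals of 31559914 to 75810659 per library. Intervals cover the spread between these libraries. Genes were kept by edgeR's filterByExpr, scaled by TMM and tested with edgeR 4.0.16 (R 4.3.3, limma 3.58.1) in a quasi-likelihood fit to all 35 libraries, with Benjamini-Hochberg adjustment per comparison and a threshold of 0.05. The pipeline was tested on simulated data. Log2 CPM for correlations used a prior count of 2. Exon lengths (all annotated exons of a gene merged) and positions were from GENCODE M21 (43835 of 49671 identifiers matched with their version, 49412 without it). The members and lists were chosen with earlier results of these data known. All 10 genes were named. Examples, not all of them, were taken from the 5 called pathway genes of largest fold change per construct against Empty. Up to 2 genes of highest correlation with each member (mean of at least 5 CPM) were also named.

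Replicate numbers in the labels are shared between groups. Deviations of same-numbered libraries correlated above 0.1 for all 5 pairs in 5 of 11 comparisons (G-NHX9, G-NHX9-midi-21FGAA and G-NHX9-DDNA against Empty, and G-NHX9-21FGAA and G-NHX9-DDNA against G-NHX9), where the blocked value is given if it changed a call. The alternatives were RLE factors, library totals without TMM, no filter, a mean of at least 1 CPM, the replicate block, a fit to only the groups compared, DESeq2 1.42.0 and leaving out each library. The libraries labelled 8 weeks alone and the sex-linked score as a covariate were chosen after seeing the data. Some marker genes are not reported here and were left out of the summed levels and counts of their lists.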

Additional observations from a re-analysis of the deposited data

Results flagged for a closer look

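Of 70 sets of 5 libraries (10 genes in 7 groups), 4 held a value far from the rest by Dixon's test at the 95% level, and chance gives about 1 in 20. *Cdk6* was 312 CPM in G-NHX9-8FA replicate 5 and 188 to 222 CPM in the other 4 libraries. *Cdkn1b* was 65.4 CPM in Empty replicate 4 against 74.1 to 77.2 CPM, and 113 CPM in G-NHX9-midi replicate 2 against 85.7 to 88.4 CPM. *Cdkn1c* was 2.33 CPM in G-NHX9-DDNA replicate 5 against 1.24 to 1.54 CPM.

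The effect of the 21FGAA substitutions differed between the whole and the shortened construct for *Cdkn1b* (0.61 on the log2 scale, whole minus shortened), *Cdkn1c* (-2.03) and *Cdkn2c* (-0.88), by an interaction term in edgeR. With the substitutions the whole construct keeps FG motifs and the shortened one keeps none.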

How the results depend on the processing

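No fold change of the 10 genes that was called reversed under any alternative. Of 1300 values with 1 library left out, 1238 kept their side of the threshold, 45 lost it and 17 gained it. Without 1 library, the number of the 10 genes called was 2 to 3 in G-NHX9 (3 with all libraries), 2 to 3 in G-NHX9-8FA (2), 5 to 7 in G-NHX9-midi (8), 1 to 3 in G-NHX9-21FGAA (2), 0 to 2 in G-NHX9-midi-21FGAA (1) and 0 to 1 in G-NHX9-DDNA cells (1) against Empty. Against G-NHX9 it was 1 in G-NHX9-8FA (1), 2 to 4 in G-NHX9-midi (3), 0 to 1 in G-NHX9-21FGAA (1) and 1 to 2 in G-NHX9-DDNA cells (2). It was 4 to 6 for G-NHX9-midi-21FGAA against G-NHX9-midi (5) and 3 to 4 for the interaction (3). The replicate block gave 4 calls in G-NHX9-8FA, 5 in G-NHX9-21FGAA and 3 in G-NHX9-midi-21FGAA against Empty, and 5 in G-NHX9-midi and 2 in G-NHX9-21FGAA against G-NHX9, and lost none. It also added *Ccnd3* in G-NHX9 and *Ccnd2* in G-NHX9-midi against Empty. *Cdk6* was added in G-NHX9-DDNA against G-NHX9 and in G-NHX9-midi-21FGAA against G-NHX9-midi, and *Ccnd1* for the interaction. Library totals without TMM lost *Ccnd3* and *Cdkn2d* in G-NHX9-midi against Empty, and *Cdkn2d* replaced *Cdkn1b* in G-NHX9-midi against G-NHX9. They gave 4 calls in G-NHX9-21FGAA, 3 in G-NHX9-midi-21FGAA and 2 in G-NHX9-DDNA against Empty, and 2 in G-NHX9-8FA and 1 in G-NHX9-DDNA against G-NHX9. With them the median log2 fold change of all genes, 0.03 or less in size with TMM, was 0.19 in G-NHX9, 0.14 in G-NHX9-midi, 0.16 in G-NHX9-21FGAA, 0.12 in G-NHX9-midi-21FGAA and 0.12 in G-NHX9-DDNA against Empty and -0.12 in G-NHX9-8FA against G-NHX9. The share of higher calls went from 52.5% to 75.4% in G-NHX9, 50.6% to 64.6% in G-NHX9-midi, 54.0% to 82.1% in G-NHX9-21FGAA, 56.7% to 83.1% in G-NHX9-midi-21FGAA and 57.3% to 82.5% in G-NHX9-DDNA against Empty, and from 44.4% to 20.0% in G-NHX9-8FA against G-NHX9. No filter gave 4 in G-NHX9-midi and 1 in G-NHX9-21FGAA against Empty. It also lost *Cdkn1b* in G-NHX9-midi against G-NHX9 and *Cdk4* in G-NHX9-midi-21FGAA against G-NHX9-midi. RLE factors, a mean of at least 1 CPM and DESeq2 each gave 2 in G-NHX9-midi-21FGAA against Empty. RLE factors also lost *Cdk6* in G-NHX9-midi against Empty. The mean of at least 1 CPM added *Cdkn2c* in G-NHX9-21FGAA, and DESeq2 added *Cdkn1c* in G-NHX9-8FA, both against Empty. A fit to only the groups compared gave 0 in G-NHX9-21FGAA and 1 in G-NHX9-DDNA against G-NHX9. It also lost *Ccnd3* in G-NHX9-midi against Empty and added *Cdk6* in G-NHX9-midi-21FGAA against G-NHX9-midi. The libraries labelled 8 weeks gave 0 in G-NHX9-midi-21FGAA and in G-NHX9-DDNA against Empty and 1 in G-NHX9-DDNA against G-NHX9. Against Empty, *Cdkn1c* there replaced *Cdk4* in G-NHX9-8FA and *Cdk6* replaced *Cdkn1a* in G-NHX9-21FGAA. In G-NHX9-midi against Empty, *Ccnd2* was gained and *Ccnd3*, *Cdkn1b* and *Cdkn2d* were lost. The sex-linked score gave 5 in G-NHX9-8FA, 4 in G-NHX9-21FGAA and 4 in G-NHX9-midi-21FGAA against Empty, and 6 for the interaction. In G-NHX9-midi against Empty it gained *Ccnd2* and lost *Ccnd3* and *Cdkn1b*. Against G-NHX9 it added *Ccnd2* in G-NHX9-midi and *Cdk6* in G-NHX9-DDNA. It added *Cdk6* and *Ccnd2* in G-NHX9-midi-21FGAA against G-NHX9-midi. The cause of these changes was not tested. *Cdkn1c*, at 5 to 33 reads in G-NHX9-midi libraries, is the gene most limited by depth.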
